A study of Homo sapiens with 12 samples.

Results

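Cholesterol and fatty acid synthesis share acetyl-CoA as their starting material and the SREBP transcription factors as their regulators. The genes described here are 32 enzymes and regulators of these pathways, chosen by symbol from textbook roles. All 32 were found in both deposited tables, of 23284 symbols in the first experiment and of 12421 in the knockout experiment. They fall into 8 genes of the mevalonate branch, 10 of the sterol branch, 6 SREBP regulators with a sterol transfer protein, and 8 of fatty acid synthesis.

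In the mevalonate branch, acetyl units are joined and reduced to mevalonate and then turned into isoprenoid diphosphates, from which the sterol branch makes squalene, lanosterol and cholesterol. SREBP proteins are made as membrane precursors in the endoplasmic reticulum, where SCAP carries them towards the Golgi when sterols are low and INSIG proteins hold SCAP back when sterols are high. The released fragment enters the nucleus and raises transcription of sterol genes (mainly SREBP2, from SREBF2) and of fatty acid genes (mainly SREBP1, from SREBF1). INSIG1 is itself an SREBP target, so its mRNA is a common readout of SREBP activity.

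The series measured RNA from polysome fractions of HEK293 cells, a line derived from human embryonic kidney, in 12 libraries that form 6 groups of 2. Cells received 5 ug of a STING plasmid or of empty vector for 24 h, and cycloheximide held ribosomes on the RNA before gradient centrifugation. The first experiment has a STING and a vector group. The knockout experiment has STING and vector groups in PERK knockout cells and in wild-type cells. PERK, a stress sensor in the endoplasmic reticulum membrane, acts on eIF2alpha in the unfolded protein response, and STING is the membrane adaptor of cytosolic DNA sensing, listed under its older symbol TMEM173. STING was supplied from a plasmid, and vector libraries held far less of its RNA than STING libraries (values below). The share of cells that took the plasmid up is not given in the labels, and neither is how many knockout clones were used. Whether the paired libraries of a group were grown apart is not in the labels, so the p-values below cover variation among libraries that could be technical alone.

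Levels are FPKM, fragments scaled to transcript length and library size by the authors, and levels in the knockout experiment cannot go under 1. The 2 tables were normalized separately, so levels set side by side across experiments are not on a shared scale. All levels are of polysome-fraction RNA. Less RNA, fewer ribosome-loaded copies and fewer cells holding the RNA cannot be told apart. TMEM173 stood at 65157 and 69253 FPKM with STING, against 14.9 and 13.8 FPKM with vector in the first experiment, at 10512 and 7338 FPKM with STING, against 23.5 and 43.8 FPKM with vector in knockout cells, and at 41812 and 40660 FPKM with STING, against 23.1 and 36.7 FPKM with vector in wild-type cells. All STING libraries therefore carried the transcript, at lower levels in knockout than in wild-type cells, and the part of this difference in the values below was not tested. EIF2AK3, the gene of PERK, was listed at 1.15 FPKM in knockout STING library 2 and at the floor of 1 in the other 7 libraries, so the knockout label cannot be checked from its level. Of 3 genes expected in HEK293 cells, LIN28B had group means from 2.04 to 5.47 FPKM over both tables, whereas PAX2 was at most 1.24 and NEFM was listed at 0 throughout the first experiment. Replicate libraries correlated at 0.948 to 0.991 across genes. The depth of a library relative to the first one of its experiment was estimated from the commonest ratio of low values. It was 0.886 to 1 in the first experiment and 0.824 to 1.28 in the knockout experiment. In the knockout experiment that ratio held only 51 of 1778 low values (knockout vector library 1) to 101 of 1942 (wild-type STING library 2), so these depths are rough. The hepatocyte markers ALB, TTR, FGB and TAT had group means of at most 0.289 FPKM in the first experiment.

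The first comparison asks how the pathway genes responded to STING in the first experiment. TM7SF2, a reductase of the C14 double bond of sterols, fell to 0.274 times its vector level. INSIG1 fell to 0.333 times and EBP, a sterol isomerase that acts later in the pathway, to 0.597 times. These were the 3 genes that passed, 2 in the sterol branch and 1 among the regulators, all lower and none higher. The remaining 27 of the 30 genes tested did not pass, and HMGCS1 and ACACA, with means below 1 FPKM, were not tested. Of all 9464 genes tested, 9.29% passed as lower and 2.51% as higher, so a count of 3 of 30 is near the background. Over all genes the split was 238 higher and 879 lower, against 318 and 650 after median-of-ratios scaling and 345 and 430 after quantile normalization.

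TM7SF2 stood at 31.2 and 24.5 FPKM with STING, against 98.9 and 104 FPKM with vector in the first experiment. The log2 change was -1.84 (SE 0.16, limma adjusted p = 0.00116), and both STING libraries were far below both vector libraries. LBR, the inner nuclear membrane protein that carries the same C14 reductase activity, stood at 16.3 and 16.9 FPKM with STING, against 13.7 and 13.7 FPKM with vector, with the STING libraries slightly above the vector libraries (log2 change 0.26, limma adjusted p = 0.396). INSIG1 stood at 15.6 and 15.7 FPKM with STING, against 38.0 and 56.0 FPKM with vector (log2 change -1.50, SE 0.21, limma adjusted p = 0.00521). The STING libraries were nearly equal, whereas the vector libraries differed from each other. EBP had the highest FPKM of the pathway genes in the first experiment, with 241 and 249 FPKM with STING, against 384 and 436 FPKM with vector (log2 change -0.74, SE 0.11, limma adjusted p = 0.00614). Its groups did not overlap either. Without STING library 2 the adjusted limma p of TM7SF2 was 0.0657, and without either STING library those of INSIG1 and EBP were 0.143 to 0.169. All 3 missed the threshold without the intensity trend and robust estimation (0.0734 to 0.106), and EBP with quantile normalization (0.113).

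**Figure D1:**
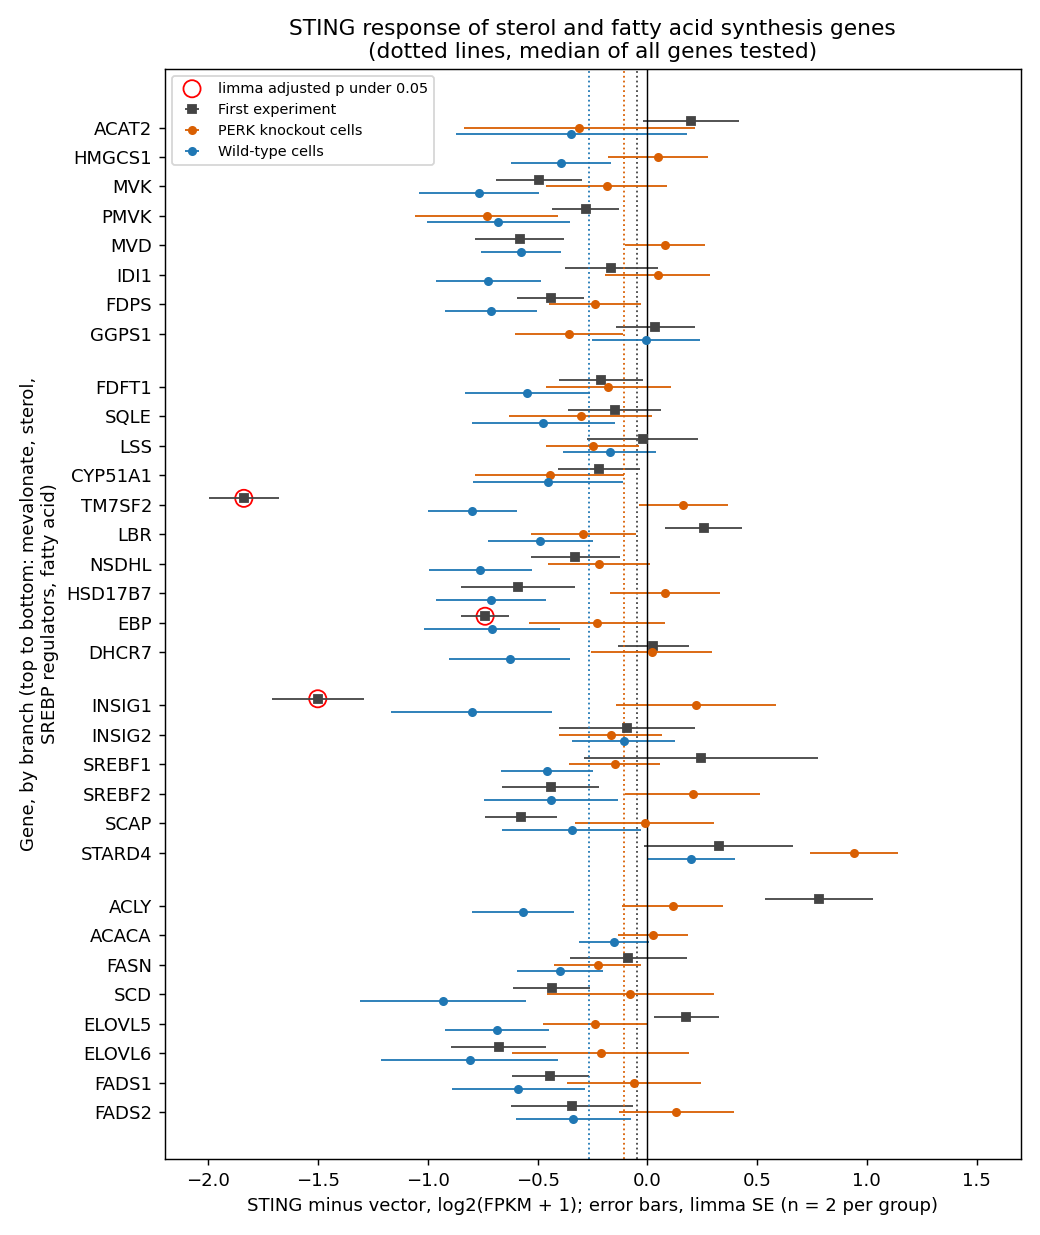
Log2 change, STING minus vector, on log2(FPKM + 1) for each pathway gene (rows, in 4 blocks) in the first experiment (grey), PERK knockout cells (orange) and wild-type cells (blue), with limma SE bars and n = 2 per group. Red circles mark TM7SF2, EBP and INSIG1, the genes with an adjusted p under 0.05, and dotted lines mark the median of all genes tested in each comparison (-0.05, -0.11 and -0.27).

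The promoters of these 3 genes, and that of SREBF2, are shown because SREBP proteins act at sterol regulatory elements close to the start site, often beside a box for the factor NF-Y. Windows of 300 bases, 250 before and 50 after the start site, were taken from RefSeq on GRCh38.p14 for 28 of the 32 genes (the first window listed for a symbol). ACAT2, FDFT1, SQLE and FASN had no window. Windows were searched on both strands for the sterol element TCACNCCAC and for the NF-Y box CCAAT, which do not overlap each other in the windows shown, and for the E-box CACGTG. Capitals mark the first 2 motifs. The windows lie at chr11:65111622-65111921 (plus strand) for TM7SF2, chr7:155297628-155297927 (plus strand) for INSIG1, chrX:48521558-48521857 (plus strand) for EBP and chr22:41832855-41833154 (plus strand) for SREBF2.
TM7SF2: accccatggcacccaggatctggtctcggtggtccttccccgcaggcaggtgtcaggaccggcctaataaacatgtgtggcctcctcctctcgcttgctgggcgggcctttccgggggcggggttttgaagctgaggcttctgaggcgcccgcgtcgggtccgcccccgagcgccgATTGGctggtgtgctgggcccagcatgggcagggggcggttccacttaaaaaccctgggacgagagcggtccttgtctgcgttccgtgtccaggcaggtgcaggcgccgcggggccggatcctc
INSIG1: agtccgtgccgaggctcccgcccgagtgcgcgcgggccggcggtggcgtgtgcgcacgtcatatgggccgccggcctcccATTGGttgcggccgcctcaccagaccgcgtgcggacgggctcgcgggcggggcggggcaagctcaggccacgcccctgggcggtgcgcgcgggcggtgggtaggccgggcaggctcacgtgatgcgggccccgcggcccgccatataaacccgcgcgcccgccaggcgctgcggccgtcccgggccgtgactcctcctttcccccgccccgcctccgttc
EBP: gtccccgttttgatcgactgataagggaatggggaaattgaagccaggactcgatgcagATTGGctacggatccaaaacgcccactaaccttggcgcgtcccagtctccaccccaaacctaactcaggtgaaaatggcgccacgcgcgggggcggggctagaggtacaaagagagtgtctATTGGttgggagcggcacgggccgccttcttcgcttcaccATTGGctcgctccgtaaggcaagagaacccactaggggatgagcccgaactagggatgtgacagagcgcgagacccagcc
SREBF2: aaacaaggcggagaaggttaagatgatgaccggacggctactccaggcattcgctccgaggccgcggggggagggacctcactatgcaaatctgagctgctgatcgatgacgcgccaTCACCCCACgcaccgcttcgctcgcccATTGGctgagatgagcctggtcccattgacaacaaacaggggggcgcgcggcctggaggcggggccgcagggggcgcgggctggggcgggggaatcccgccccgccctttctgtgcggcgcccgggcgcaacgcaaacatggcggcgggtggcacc
SREBF2 was the 1 gene of 28 with a match to TCACNCCAC, at position -133 relative to the start site, against 1.13% of all 35116 windows. NF-Y boxes were found in 16 of 28 windows (57.1%) against 34.6% of all windows, with 3 in EBP, 1 in TM7SF2 and 1 in INSIG1. E-boxes were found in 4 of 28 (14.3%) against 7.26%, with 1 in INSIG1 (not in capitals) and 0 in TM7SF2, EBP and SREBF2. These are matches of letters only. An element that departs from the searched letters or lies outside the window was not counted, so a missing match does not show that a gene lacks such an element. The pathway shares count 1 window per gene, whereas the shares of all windows count every window of every symbol, so they are not like for like.

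Among the other sterol enzymes of the first experiment, NSDHL, which acts in removal of the C4 methyl groups, stood at 19.5 and 27.6 FPKM with STING, against 28.0 and 30.9 FPKM with vector. HSD17B7, which acts in the same step, stood at 3.59 and 4.67 FPKM with STING, against 5.44 and 8.15 FPKM with vector. Neither gene passed (limma adjusted p = 0.344 and 0.187). FDFT1, squalene synthase, SQLE, squalene epoxidase, LSS, lanosterol synthase, CYP51A1, lanosterol demethylase, and DHCR7, the last reductase, had log2 changes between -0.22 and 0.03, and none of these passed (adjusted limma p from 0.501 to 0.966). CYP51A1 stood at 10.6 and 11.4 FPKM with STING, against 13.7 and 12.3 FPKM with vector, without overlap. SQLE stood at 16.9 and 14.4 FPKM with STING, against 14.8 and 20.4 FPKM with vector, with overlapping groups.

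The mevalonate branch held no gene that passed in the first experiment, and 3 of its 7 tested genes had an unadjusted limma p under 0.05, all lower, against 18.9% of all genes that were lower by this measure. MVD, which decarboxylates mevalonate diphosphate, stood at 13.9 and 15.4 FPKM with STING, against 19.2 and 26.2 FPKM with vector (log2 change -0.58, SE 0.20, limma adjusted p = 0.108). MVK, mevalonate kinase, stood at 6.82 and 7.60 FPKM with STING, against 10.5 and 10.7 FPKM with vector (log2 change -0.50, limma adjusted p = 0.148). The STING libraries lay below the vector libraries for both. PMVK, the next kinase, stood at 44.7 and 53.7 FPKM with STING, against 57.2 and 62.5 FPKM with vector. FDPS, which builds farnesyl diphosphate, had a log2 change of -0.44 (limma adjusted p = 0.104), with both STING libraries below both vector libraries for this gene and for PMVK. IDI1, the isopentenyl diphosphate isomerase, stood at 9.01 and 9.86 FPKM with STING, against 9.32 and 12.2 FPKM with vector. GGPS1, which makes geranylgeranyl diphosphate for protein prenylation, stood at 31.5 and 30.4 FPKM with STING, against 26.4 and 34.5 FPKM with vector. ACAT2, the thiolase that starts the branch, had 16.9 and 11.7 FPKM with STING, against 11.7 and 12.6 FPKM with vector, and the groups of all 3 overlapped. HMGCS1, the HMG-CoA synthase, averaged 0.844 ± 0.349 FPKM with STING and 0.842 ± 0.320 FPKM with vector (SD, n = 2 each).

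The other regulators did not pass in the first experiment. SCAP, the escort of SREBP, stood at 26.5 and 28.8 FPKM with STING, against 38.2 and 45.5 FPKM with vector (log2 change -0.58, SE 0.16, limma adjusted p = 0.0622). It passed when genes with a mean under 5 were left out (0.0420) and with a replicate block (0.0307). SREBF2 stood at 4.61 and 4.57 FPKM with STING, against 5.93 and 7.30 FPKM with vector (log2 change -0.44, limma adjusted p = 0.241). For SCAP and SREBF2 both STING libraries lay below both vector libraries. SREBF1 stood at 1.25 and 3.77 FPKM with STING, against 0.851 and 3.15 FPKM with vector, so its libraries differed more within than between groups. INSIG2, the second INSIG protein and not a classical SREBP target, stood at 8.44 and 4.07 FPKM with STING, against 5.89 and 6.89 FPKM with vector. STARD4, a cytosolic sterol transfer protein, stood at 2.87 and 1.88 FPKM with STING, against 0.972 and 2.60 FPKM with vector. INSIG2 and STARD4 likewise showed overlapping groups.

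In fatty acid synthesis no gene passed in the first experiment, and the genes did not all lie on one side. ACLY, which releases cytosolic acetyl-CoA from citrate for both pathways, stood at 10.6 and 7.92 FPKM with STING, against 4.17 and 5.78 FPKM with vector (log2 change 0.78, SE 0.24, limma adjusted p = 0.0804). ELOVL6, which lengthens palmitate, stood at 3.85 and 4.65 FPKM with STING, against 7.47 and 7.29 FPKM with vector (log2 change -0.68, SE 0.22, limma adjusted p = 0.0847). Both genes had groups without overlap, ACLY with higher and ELOVL6 with lower STING libraries. SCD, the stearoyl-CoA desaturase, stood at 14.7 and 13.6 FPKM with STING, against 19.3 and 19.7 FPKM with vector (log2 change -0.44, limma adjusted p = 0.151). ELOVL5, an elongase of polyunsaturated fatty acids, stood at 39.9 and 38.3 FPKM with STING, against 34.6 and 34.3 FPKM with vector. The delta-5 desaturase FADS1 and the delta-6 desaturase FADS2 had log2 changes of -0.44 and -0.34 (limma adjusted p = 0.150 and 0.479). FASN, the fatty acid synthase, was low at 1.14 and 0.939 FPKM with STING, against 1.07 and 1.26 FPKM with vector. ACACA, acetyl-CoA carboxylase, averaged 0.465 ± 0.0582 FPKM with STING and 0.468 ± 0.0340 FPKM with vector (SD, n = 2 each).

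Counted by branch, both STING libraries lay below both vector libraries for 4 of 7 mevalonate genes, 5 of 10 sterol genes, 3 of 6 regulators and 3 of 7 fatty acid genes. Together these were 15 of 30 genes, against 32.8% of all genes tested, and 3 genes (LBR, ACLY and ELOVL5) lay above without overlap, against 24.2%. After median-of-ratios scaling 14 were lower and 4 higher without overlap, against 28.4% and 29.9% of all genes. The median log2 change was -0.28 for the mevalonate branch, -0.22 for the sterol branch, -0.27 for the regulators and -0.34 for fatty acid synthesis. The median over all genes was -0.05. Single libraries moved these medians. Without STING library 1 the mevalonate median was -0.15, that of the regulators -0.48 and that of fatty acid synthesis -0.16. Without vector library 1 the sterol median was -0.38 and that of the regulators -0.45. Without vector library 2 the sterol median was -0.14, that of the regulators -0.15 and that of fatty acid synthesis -0.21. By unadjusted limma p under 0.05, 10 of the 30 genes were lower and 1 was higher, against 18.9% and 8.82% of all genes.

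The second comparison asks for the response to STING in wild-type cells of the knockout experiment. No pathway gene passed with limma, as was so for nearly all genes: of 12254 tested, 0% passed as lower and 0.00816% as higher, which was TMEM173 alone. At an unadjusted limma p under 0.05, 10 of the 32 pathway genes were lower and 0 higher, against 12.4% and 0.441% of all genes. These 10 were MVK, MVD, IDI1 and FDPS of the mevalonate branch, TM7SF2, NSDHL and HSD17B7 of the sterol branch, and ACLY, SCD and ELOVL5 of fatty acid synthesis. Both STING libraries lay below both vector libraries for 26 of 32 genes, against 52.3% of all genes, and above them for STARD4 alone, against 3.31%. These were 6 of 8 mevalonate genes, 9 of 10 sterol genes, 4 of 6 regulators and 7 of 8 fatty acid genes.

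The values in these cells were lower for most genes, not for this pathway alone. The median log2 change over all genes was -0.27, and scaling each library by its median of ratios moved it to 0.05. On the deposited values the median log2 change was -0.63 for the mevalonate branch, -0.59 for the sterol branch, -0.39 for the regulators and -0.58 for fatty acid synthesis, which are -0.36, -0.32, -0.12 and -0.31 relative to all genes. Relative to all genes, the median of the regulators was 0.01 without wild-type STING library 1, -0.05 without wild-type vector library 1 and -0.03 without wild-type vector library 2, and that of fatty acid synthesis was -0.17 without wild-type vector library 2. After median-of-ratios scaling the medians were -0.25, -0.21, -0.02 and -0.21. After that scaling 16 of 32 genes were lower without overlap, against 16.7% of all genes. Another 4 were higher without overlap (GGPS1, INSIG2, LSS and STARD4), against 30% of all genes. Of these, INSIG2 and LSS were lower without overlap as deposited.

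TM7SF2 stood at 40.7 and 35.1 FPKM with STING, against 68.0 and 65.0 FPKM with vector in wild-type cells (log2 change -0.80, SE 0.20, limma adjusted p = 0.384). INSIG1 stood at 22.7 and 24.0 FPKM with STING, against 35.4 and 48.5 FPKM with vector (log2 change -0.80, SE 0.37, limma adjusted p = 0.396), and EBP at 106 and 95.1 FPKM with STING, against 158 and 172 FPKM with vector. Thus the 3 genes that fell in the first experiment had STING libraries below the vector libraries here too, without a call. SCD had the largest absolute log2 change of the 32 genes in wild-type cells, with 23.6 and 28.3 FPKM with STING, against 41.9 and 60.3 FPKM with vector (log2 change -0.93, SE 0.38, limma adjusted p = 0.384). ELOVL6 stood at 5.53 and 4.06 FPKM with STING, against 7.89 and 10.4 FPKM with vector. ELOVL5 stood at 16.4 and 25.8 FPKM with STING, against 34.7 and 32.7 FPKM with vector, and FASN at 3.63 and 3.21 FPKM with STING, against 4.48 and 5.19 FPKM with vector. In each of these pairs of groups the libraries did not overlap.

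Of the mevalonate enzymes in wild-type cells, MVK stood at 7.71 and 8.25 FPKM with STING, against 12.3 and 16.6 FPKM with vector (log2 change -0.77, limma adjusted p = 0.384). IDI1 stood at 13.6 and 12.2 FPKM with STING, against 23.5 and 20.5 FPKM with vector (log2 change -0.73, limma adjusted p = 0.384). MVD stood at 18.1 and 16.7 FPKM with STING, against 28.2 and 24.6 FPKM with vector. For PMVK the values were 23.0 and 22.8 FPKM with STING, against 36.2 and 38.4 FPKM with vector. These 4 enzymes had STING libraries below both vector libraries, as FDPS and HMGCS1 did. GGPS1 differed from its branch, with 47.2 and 46.7 FPKM with STING, against 39.0 and 57.0 FPKM with vector, and its groups overlapped. ACAT2 stood at 11.7 and 8.64 FPKM with STING, against 8.28 and 20.4 FPKM with vector, where the vector libraries enclosed both STING libraries.

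The sterol enzyme NSDHL stood at 14.9 and 16.4 FPKM with STING, against 23.6 and 31.3 FPKM with vector (log2 change -0.76, limma adjusted p = 0.384). SQLE stood at 13.9 and 13.0 FPKM with STING, against 17.3 and 21.1 FPKM with vector. CYP51A1 stood at 9.39 and 12.0 FPKM with STING, against 11.4 and 19.4 FPKM with vector, and was the 1 sterol gene whose groups overlapped. Among the regulators, SCAP stood at 31.0 and 33.9 FPKM with STING, against 39.5 and 43.4 FPKM with vector, SREBF1 at 2.65 and 2.52 FPKM with STING, against 4.37 and 3.51 FPKM with vector, and SREBF2, whose groups overlapped, at 9.80 and 13.5 FPKM with STING, against 13.4 and 19.0 FPKM with vector. INSIG2 stood at 11.2 and 11.3 FPKM with STING, against 11.9 and 12.6 FPKM with vector, so the groups were separated by less than 1 FPKM. STARD4 stood at 1.48 and 1.44 FPKM with STING, against 1.00 and 1.30 FPKM with vector, with 1 vector library at the floor. ACLY, which lay higher with STING in the first experiment, stood at 8.34 and 9.32 FPKM with STING, against 12.2 and 15.1 FPKM with vector.

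**Figure D2:**
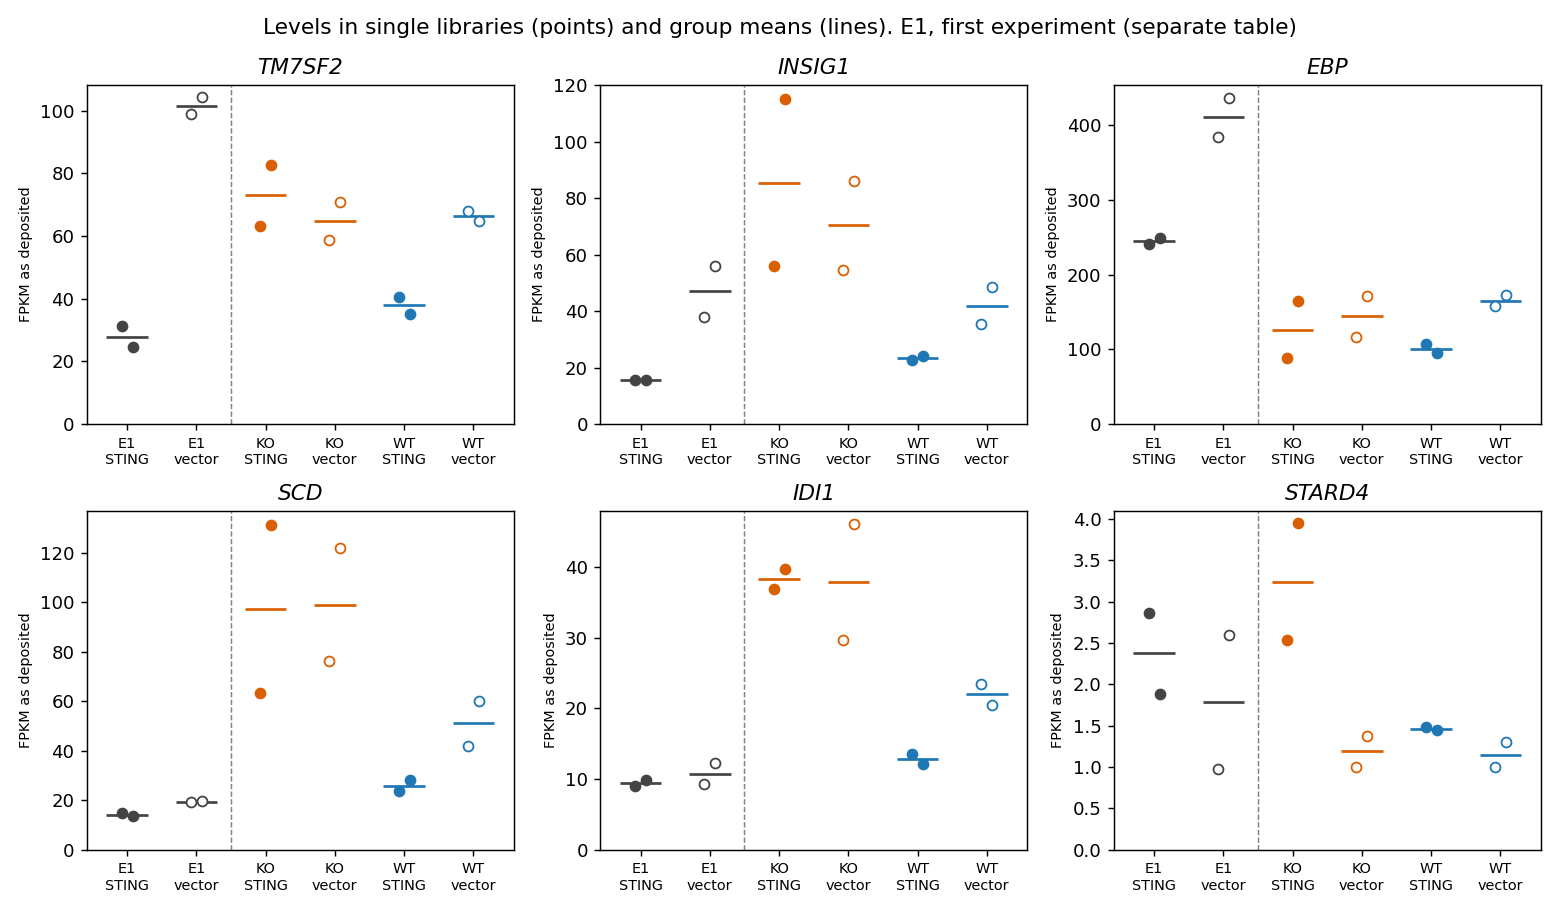
Deposited FPKM in single libraries (points, filled for STING and open for vector) and group means (lines) for TM7SF2, INSIG1, EBP, SCD, IDI1 and STARD4 in the first experiment (E1, grey), PERK knockout cells (KO, orange) and wild-type cells (WT, blue); the dashed line separates the 2 tables. For the first 4 genes the STING libraries lie below the vector libraries in E1 and in WT, and the groups overlap in KO.

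In PERK knockout cells no pathway gene passed with limma either, and most of the groups overlapped. Of all 12254 genes, 0% passed as lower and 0.00816% as higher, again TMEM173 alone. At an unadjusted limma p under 0.05, 0 of 32 pathway genes were lower and 1 was higher, against 6.64% and 1.06% of all genes. Both STING libraries lay below both vector libraries for 3 of 32 genes (GGPS1, FASN and ELOVL5), against 21.9% of all genes, and above them for STARD4, against 5.66%. After median-of-ratios scaling 1 gene was lower and 6 were higher without overlap, against 12.3% and 15.3% of all genes. Non-overlap also depends on how far apart the libraries of a group lie. The median log2 difference of library 2 minus library 1 over pathway genes was 0.47 for STING and 0.38 for vector in knockout cells. Over all genes it was 0.12 in either group. In wild-type cells it was 0.004 and 0.23 over pathway genes. The part of this in the shares was not tested.

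STARD4 stood at 2.53 and 3.95 FPKM with STING, against 1.00 and 1.38 FPKM with vector in knockout cells (log2 change 0.94, SE 0.20, limma adjusted p = 0.432). It was the 1 pathway gene with STING libraries above both vector libraries in both genotypes, at levels near the floor. TM7SF2 stood at 63.3 and 82.7 FPKM with STING, against 58.6 and 70.8 FPKM with vector (log2 change 0.16, limma adjusted p = 0.892). For INSIG1 the values were 55.8 and 115 FPKM with STING, against 54.7 and 86.1 FPKM with vector (log2 change 0.22, limma adjusted p = 0.930). EBP stood at 88.1 and 164 FPKM with STING, against 116 and 172 FPKM with vector. The groups of these 3 genes overlapped, and for each of them the libraries within either group differed by more than the group means did.

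The other regulators in knockout cells also had overlapping groups. SCAP stood at 27.1 and 54.5 FPKM with STING, against 33.9 and 44.4 FPKM with vector, and SREBF2 at 15.9 and 26.4 FPKM with STING, against 16.0 and 19.5 FPKM with vector. SREBF1 stood at 4.07 and 3.52 FPKM with STING, against 4.75 and 3.90 FPKM with vector, and INSIG2 at 11.5 and 15.1 FPKM with STING, against 12.5 and 17.8 FPKM with vector. Of the enzymes, PMVK stood at 17.1 and 34.4 FPKM with STING, against 34.2 and 49.3 FPKM with vector (log2 change -0.73, limma adjusted p = 0.659), and GGPS1 at 28.9 and 30.3 FPKM with STING, against 31.9 and 45.8 FPKM with vector (log2 change -0.36, limma adjusted p = 0.788). PMVK thus had a lower group mean with STING in both genotypes, although 1 knockout STING library lay between its vector libraries. CYP51A1 stood at 9.88 and 18.0 FPKM with STING, against 17.2 and 20.0 FPKM with vector, and SQLE at 16.1 and 33.1 FPKM with STING, against 25.6 and 32.4 FPKM with vector. In each of these 2 genes 1 STING library was low and the other lay among or above the vector libraries. ELOVL5 stood at 38.2 and 43.7 FPKM with STING, against 45.8 and 51.2 FPKM with vector, and FASN at 3.95 and 4.42 FPKM with STING, against 5.05 and 5.08 FPKM with vector, both without overlap. SCD stood at 63.5 and 131 FPKM with STING, against 76.1 and 122 FPKM with vector, and IDI1 at 36.9 and 39.8 FPKM with STING, against 29.8 and 46.1 FPKM with vector, with overlap in both.

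The median log2 change in knockout cells was -0.21 for the mevalonate branch, -0.23 for the sterol branch, 0.10 for the regulators and -0.07 for fatty acid synthesis, against -0.11 for all genes. Single libraries weighed on these values. Knockout STING library 2 stood above library 1 for 28 of 32 pathway genes, against 59.5% of all genes, and knockout vector library 2 above library 1 for 27, against 60.1%. A like count was found for vector libraries elsewhere, with 26 of 32 in wild-type cells, against 59.1% of all genes, and 26 of 30 in the first experiment, against 64.8%. For STING libraries the counts were 16 of 32 in wild-type cells, against 46.3%, and 17 of 30 in the first experiment, against 52%. The median over all 32 genes was -0.16 with all libraries, 0.13 without knockout STING library 1 and -0.34 without knockout STING library 2. It was -0.29 without knockout vector library 1 and 0.07 without knockout vector library 2, so the direction of the median in knockout cells rests on which library is used. By branch the medians over these 4 omissions ranged from -0.40 to 0.04 for mevalonate, from -0.44 to 0.15 for sterol, from -0.22 to 0.52 for the regulators and from -0.31 to 0.25 for fatty acid synthesis. In wild-type cells the same median was -0.56, and -0.39 to -0.68 without single wild-type libraries.

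**Figure D3:**
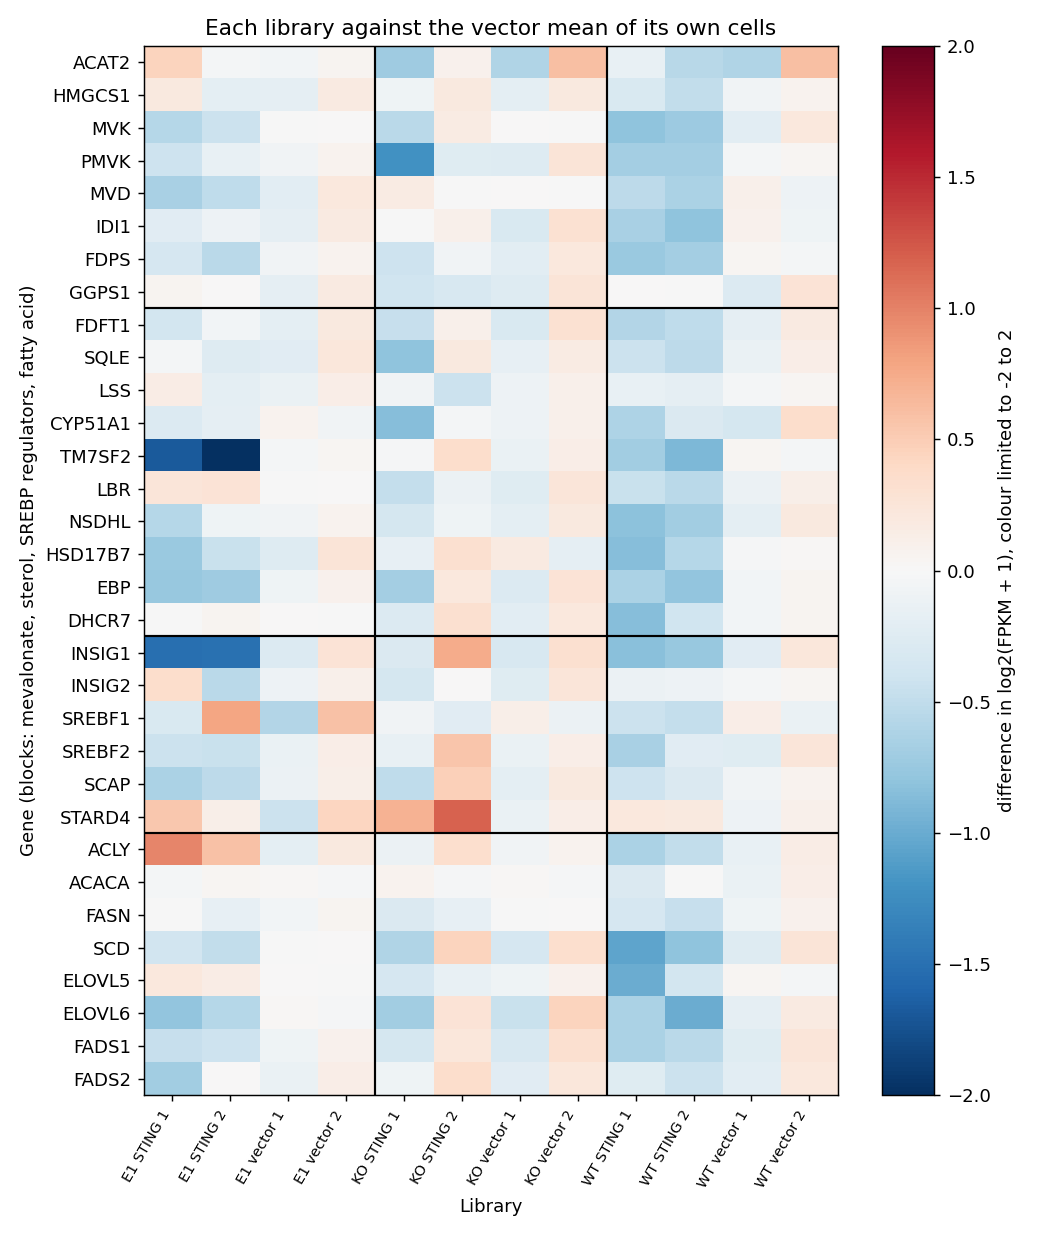
Each library (columns) against the mean of the vector libraries of its own cells, as a difference in log2(FPKM + 1), for the pathway genes (rows, in 4 blocks); blue is lower and red is higher, limited to -2 and 2. The WT STING columns are blue for most genes, and the KO STING columns differ from each other, with library 2 above library 1 for 28 of 32 genes.

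The difference between the STING effects of the genotypes, knockout minus wild type, was negative for 4 of 32 pathway genes, against 33.4% of all genes, and positive for the other 28, but no gene passed with limma (adjusted p of at least 0.966 for each), and of all 12254 genes 0% passed in either direction. At an unadjusted limma p under 0.05, TM7SF2, MVD and STARD4 were higher and 0 genes lower, against 3.04% and 0.832% of all genes. The difference was 0.96 for TM7SF2 (SE 0.28), 1.02 for INSIG1 (SE 0.52) and 0.85 for SCD (SE 0.54). MVD had a difference of 0.66 (SE 0.26) and IDI1 of 0.77 (SE 0.34). After median-of-ratios scaling 7 of the 32 differences were negative. The 4 negative differences on the deposited values were those of PMVK, GGPS1, LSS and INSIG2, of which GGPS1 was the furthest from 0 at -0.35 (SE 0.35). TMEM173 itself was at 10512 and 7338 FPKM in knockout STING libraries and at 41812 and 40660 FPKM in wild-type STING libraries, and the part of this gap in the differences was not tested.

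By branch, the median difference was 0.46 for mevalonate, 0.42 for sterol, 0.49 for regulators and 0.50 for fatty acid genes, against 0.13 for all genes. After median-of-ratios scaling the 4 medians were 0.30, 0.23, 0.31 and 0.31, against -0.02 for all genes. The median over the 32 genes was 0.47 with all libraries and ranged from 0.24, without knockout STING library 2, to 0.67, without knockout STING library 1. In the same order of branches the medians were 0.27, 0.10, 0.34 and 0.24 without knockout STING library 2, and 0.58, 0.67, 0.91 and 0.75 without knockout STING library 1. Without knockout vector library 1 they were 0.25, 0.13, 0.47 and 0.23, and without knockout vector library 2 they were 0.64, 0.64, 0.65 and 0.72. Without wild-type vector library 2 the sterol median was 0.26.

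With vector alone, several pathway genes had higher levels in knockout than in wild-type cells, without a call for any of the 32. With limma 0.049% of all genes passed, 0.0326% as higher and 0.0163% as lower. At an unadjusted limma p under 0.05, SCD, IDI1 and LSS were higher and 0 pathway genes lower, against 4.38% and 7.99% of all genes. SCD stood at 76.1 and 122 FPKM in knockout cells, against 41.9 and 60.3 FPKM in wild-type cells (log2 change 0.93, SE 0.38, limma adjusted p = 0.382). IDI1 stood at 29.8 and 46.1 FPKM in knockout cells, against 23.5 and 20.5 FPKM in wild-type cells (log2 change 0.73, SE 0.24, limma adjusted p = 0.299). LSS stood at 13.2 and 15.5 FPKM in knockout cells, against 8.26 and 8.75 FPKM in wild-type cells (log2 change 0.69, SE 0.21, limma adjusted p = 0.282). The groups of these 3 genes did not overlap.

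INSIG1 stood at 54.7 and 86.1 FPKM in knockout cells, against 35.4 and 48.5 FPKM in wild-type cells (log2 change 0.72, limma adjusted p = 0.478). SQLE stood at 25.6 and 32.4 FPKM in knockout cells, against 17.3 and 21.1 FPKM in wild-type cells. HMGCS1 stood at 3.68 and 5.11 FPKM in knockout cells, against 2.60 and 2.92 FPKM in wild-type cells. Both knockout libraries lay above both wild-type libraries for these 3 genes and for 10 of the 32 in all, against 12.5% of all genes, and below them for ACLY and NSDHL, against 25.8%. NSDHL stood at 17.3 and 22.8 FPKM in knockout cells, against 23.6 and 31.3 FPKM in wild-type cells. After median-of-ratios scaling 21 of 32 genes lay above without overlap, against 21.1% of all genes, and 1 below, against 17.8%. The vector libraries of this comparison are also the controls of both STING effects, so the higher vector levels in knockout cells and the genotype difference in STING effects are not independent measurements.

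Across the experiments that share no library, 13 of the 30 genes tested in both lay below vector without overlap in the first experiment and in wild-type cells, against 23.7% of the 8808 genes tested in both. These were MVK, PMVK, MVD and FDPS of the mevalonate branch, TM7SF2, NSDHL, HSD17B7 and EBP of the sterol branch, INSIG1 and SCAP of the regulators, and SCD, ELOVL6 and FADS1 of fatty acid synthesis. After median-of-ratios scaling MVD, SCAP and FADS1 dropped out, which left 10 of 30 genes, against 7.65% of all genes.

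**Figure D4:**
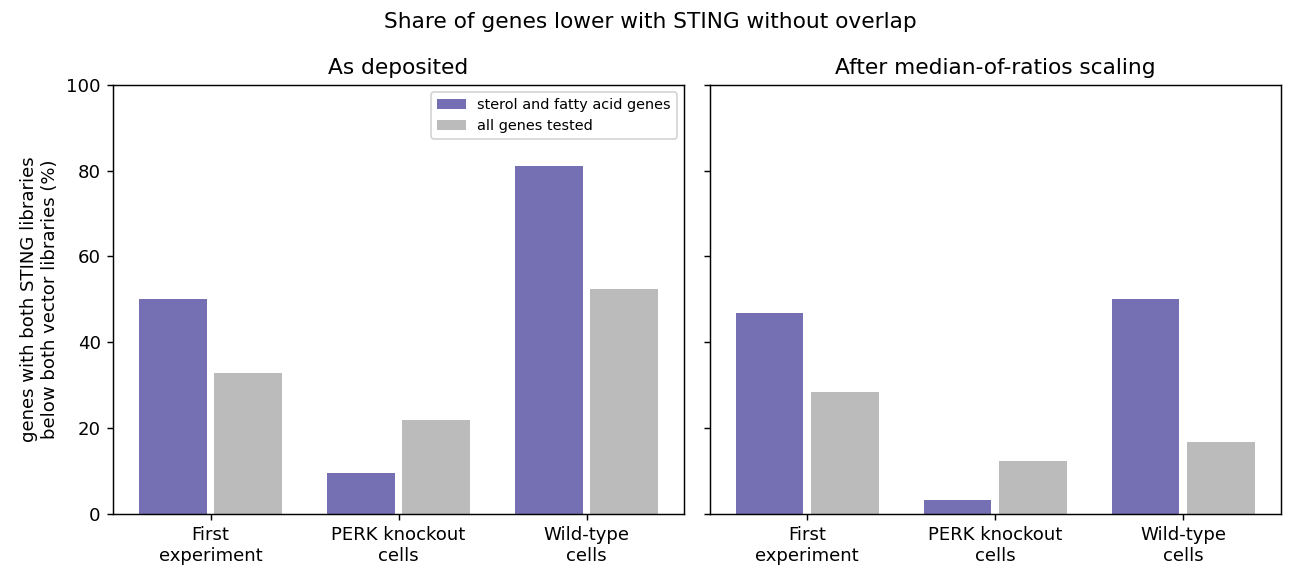
Share of genes (percent) with both STING libraries below both vector libraries, for the pathway genes (purple) and all genes tested (grey), as deposited (left) and after median-of-ratios scaling (right). In wild-type cells the shares were 81.2% and 52.3% as deposited, and 50% and 16.7% after scaling. In knockout cells they were 9.38% and 21.9% as deposited, and 3.12% and 12.3% after scaling. The median difference between the libraries of a group over pathway genes was larger in knockout than in wild-type cells, and its part in these shares was not tested.

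Companion genes of these pathways were described in the same way. Of 14 sterol and isoprenoid companions, 3 fell and 0 rose in the first experiment, against the 9.29% and 2.51% given above. MSMO1, the C4 methyl oxidase, stood at 11.2 and 11.0 FPKM with STING, against 21.1 and 22.7 FPKM with vector (log2 change -0.92, SE 0.18, limma adjusted p = 0.0154). TMEM97, a sterol-regulated membrane protein, stood at 35.2 and 34.3 FPKM with STING, against 61.2 and 61.8 FPKM with vector (log2 change -0.81, limma adjusted p = 0.0107), and NPC2, which carries cholesterol in lysosomes, at 246 and 227 FPKM with STING, against 363 and 355 FPKM with vector (log2 change -0.60, limma adjusted p = 0.0108). Of 16 tested fatty acid companions, TECR, the last enzyme of the elongation cycle, fell to 293 and 311 FPKM with STING, against 475 and 528 FPKM with vector (log2 change -0.73, limma adjusted p = 0.00597), and 0 rose. Of 3 tested genes among the liver X receptors and their targets 0 passed with limma. At an unadjusted limma p under 0.05, 1 of them was lower, against 18.9% of all genes. MSMO1, TMEM97, NPC2 and TECR missed the threshold without either STING library (limma adjusted p from 0.140 to 0.180) and without the intensity trend and robust estimation (0.0915 to 0.120). MSMO1 also missed it without vector library 2 (0.0590), and NPC2 and TECR with quantile normalization (0.342 and 0.103).

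In the knockout experiment no companion passed in either genotype with limma. At an unadjusted limma p under 0.05, 2 of 14 sterol companions and 4 of 20 fatty acid companions were lower in wild-type cells, against 12.4% of all genes. The same held for 1 of 4 genes among the liver X receptors and their targets. In knockout cells these counts were 0, 1 and 0, against 6.64%, and 1 fatty acid companion was higher, against 1.06%. The median log2 change in wild-type cells was -0.38 for sterol companions and -0.43 for fatty acid companions, which is closer to the median of all genes, -0.27, than the -0.59 and -0.58 of the sterol and fatty acid branches.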

How the data were processed

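RNA of polysome fractions was sequenced from 12 libraries, after poly(A) selection of Smart-seq2 libraries per the labels' protocols. The deposited values are FPKM, made by the authors on hg19 with TopHat2 2.1.1 and Cufflinks 2.2.1, per the submitters' processing notes. The knockout table names no unit in its file and was read as FPKM with a floor of 1. ERCC spike-ins were added in the knockout experiment, per the labels, and their use in scaling is not given in the sources used here. Absolute depth is unknown, so no counting interval is given.

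Genes with a mean of at least 1 were tested in each table as log2(FPKM + 1) with limma 3.58.1 in R 4.3.3 (intensity trend, robust estimation), two-sided, with Benjamini-Hochberg adjustment over all genes and a threshold of 0.05. Fold changes on this scale understate changes of low genes. The first experiment was fitted alone and the knockout experiment as 4 groups with a shared spread. The procedure was also run on simulated data with independent noise and no shift of whole libraries. The real data differ in both respects, so that run does not show how the procedure performs on them. Values per library are given for genes past the threshold, all regulators and the 2 genes of each branch with the largest absolute change in each STING comparison, and for some others chosen after their values were seen. The genes and lists were chosen with earlier results of these data known. Alternatives were 2 scalings, other pseudocounts and filters, no trend, a replicate block and leaving out single libraries. A comparison of non-overlap after both scalings was added after seeing the data.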

Additional observations from a re-analysis of the deposited data

Results flagged for a closer look

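LBR, ACLY and ELOVL5 had STING libraries on opposite sides of the vector libraries in the 2 experiments, with groups that did not overlap in either. The log2 change of LBR was 0.26 in the first experiment and -0.49 in wild-type cells of the knockout experiment. For ACLY the values were 0.78 and -0.57, and for ELOVL5 they were 0.18 and -0.69. After median-of-ratios scaling or quantile normalization the groups of ELOVL5 overlapped in wild-type cells, whereas those of LBR and ACLY still did not overlap in either experiment. None passed the threshold with limma in either experiment, and the difference between the experiments was not tested, since their tables were normalized separately.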

How the results depend on the processing

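No pathway or companion gene that passed with limma changed sign under any alternative run. By non-overlap, LSS and INSIG2 in wild-type cells went from lower as deposited to higher under either scaling. In the first experiment 1117 genes passed, against 580 without a filter on low values and 17 without the intensity trend and robust estimation, where 0 pathway genes passed in place of 3. Leaving out 1 library gave 38 genes (without STING library 2) to 818 (without vector library 1), with 42 without STING library 1 and 686 without vector library 2, and 1 pathway gene or 0 without a STING library. In wild-type cells leaving out STING library 2 gave 2 genes in place of 1. In knockout cells leaving out vector library 2 gave 3 and STING library 2 gave 2. For knockout against wild type with vector, 6 genes passed, against 53 with median-of-ratios scaling, 24 with quantile normalization, 17 with a pseudocount of 0.1, 32 with a mean of at least 5, 0 without the intensity trend and 0 to 3 without single libraries. No pathway gene passed under any of these in the knockout experiment. Pathway genes lower without overlap numbered 16 in wild-type cells, 1 in knockout cells and 1 for vector alone under either scaling, in place of 26, 3 and 2.

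The difference of library 2 minus library 1 was correlated across genes between the 2 groups of each comparison. It gave 0.0741 for the first experiment, 0.163 for wild-type cells, 0.528 for knockout cells and 0.434 for vector alone. Same-numbered libraries thus deviated together in part, most in knockout cells. The sample descriptions of the first experiment also carry a letter, A for library 1 and B for library 2 of each group. The labels do not say that a number or letter marks a shared day or culture, so the main fits did not pair libraries. Taken by number, some overlapping knockout groups differed in the same direction in both pairs. Of those with printed values, EBP, PMVK, CYP51A1, SREBF1 and INSIG2 were lower with STING, and TM7SF2 and INSIG1 higher. With a replicate block 1587 genes and 4 pathway genes passed in the first experiment, 1 gene in wild-type cells, 2 in knockout cells, 0 for the genotype difference and 105 for vector alone.

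With 2 libraries a group and unknown depth, changes smaller than the spread between libraries were not detectable. In the knockout experiment some changes larger than that spread did not pass either, such as that of TM7SF2 in wild-type cells. A missing call there does not show that a gene was unchanged. In the knockout experiment the values of STARD4 are limited by the floor of 1.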
